A study of Mus musculus with 4 samples.

Results

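The transcript levels of 6 homeobox genes, Meis1, Meis2, Meis3, Pbx2, Pbx3 and Pbx4, were followed in RNA sequencing of mouse forebrain. Control forebrain was compared with that of a conditional knockout of Chd7, which encodes a chromatin remodeller. The genes were chosen by symbol from the 24982 genes of the deposited count table, with their levels in this same comparison already known. Fold changes and adjusted p-values of these 6 genes are therefore given as a description and support nothing further. The forebrain was micro-dissected from E10.5 embryos, and 4 libraries of polyA RNA were sequenced, 2 of each genotype. Control embryos were Chd7 +/f: their labels name 1 floxed allele and do not mention Cre. The conditional knockout (cKO) libraries carried Sox1 cre+/- and Chd7 f/f, so that Chd7 was deleted where the Cre named for Sox1, a gene of the early neural tube, had been active. Every library thus carried at least 1 floxed allele, and the Cre allele was named in the cKO group only, so that its own effect and that of Chd7 loss cannot be told apart. Whether a library came from 1 embryo or from several was not given in the labels, and the spread between libraries is all that the p-values measure.

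MEIS and PBX proteins belong to the TALE class of homeodomain proteins, named for a loop extension inside the homeodomain. MEIS proteins bind PBX proteins directly, and the pair binds DNA together with other homeodomain proteins, most famously those of the Hox clusters. MEIS proteins help to keep PBX proteins in the nucleus. In the forebrain, where Hox genes are silent, Meis2 is known as a gene of the developing striatum and of other ventral territories, and its protein acts there with PAX6 and DLX2. Meis1 is also known from blood stem cells and leukaemia, where it was found as a site of viral integration. The PBX proteins are broadly present in embryonic tissues.

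The start regions of the 3 Meis genes are shown because these genes had the lower cKO levels of the 6. RefSeq start windows of GRCm38.p6 (250 bases before to 50 after the start) were found for 5 of the 6 genes, all but Pbx3. Only the longest stretch before the start that lies outside exons of GENCODE M21 is printed, 5′ to 3′ on the gene's strand, with CpG dinucleotides in capitals.
Meis1, chr11:19018986-19019219, minus strand: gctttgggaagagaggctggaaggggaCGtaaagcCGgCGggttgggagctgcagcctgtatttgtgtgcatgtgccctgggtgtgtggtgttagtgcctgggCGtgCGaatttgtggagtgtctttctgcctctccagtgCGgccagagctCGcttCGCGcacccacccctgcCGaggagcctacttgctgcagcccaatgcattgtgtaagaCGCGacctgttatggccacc
Meis2, chr2:116064722-116064801, minus strand: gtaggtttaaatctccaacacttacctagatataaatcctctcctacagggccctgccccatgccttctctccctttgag
Meis3, chr7:16175185-16175274, plus strand: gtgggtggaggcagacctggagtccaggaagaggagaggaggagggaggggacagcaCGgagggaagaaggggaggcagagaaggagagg
These stretches hold 12, 0 and 1 CpG dinucleotides. The RefSeq records of all 3 genes extend upstream of the stretch printed. In the full windows of 300 bases, CpG counts were 15 for Meis1, 13 for Meis2, 21 for Meis3, 29 for Pbx2 and 19 for Pbx4, against a median of 7 and an upper quartile of 20 over 32851 windows. The 5 windows were searched on both strands for the MEIS motif TGACAG and the PBX motifs TGATTGAT and TGATNNAT, the latter of which includes the former. None of the 5 held a match to any of the 3 motifs. Of all windows, 19.2% held TGACAG, 0.746% TGATTGAT and 8.85% TGATNNAT.

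Each library held 16581252 to 17096522 counts, and levels are given as counts-per-million values (CPM) of the TMM-scaled library size, with n = 2 libraries per group. Chd7 was at 339 and 345 CPM in the control and at 136 and 132 CPM in the cKO libraries, 39.1% of the control level. The summed level of 8 genes that mark the forebrain was 1270 and 1090 CPM in the control and 939 and 964 CPM in the cKO libraries. Of the 7 that were tested, 2 fell, 0 rose and 5 were not called in edgeR (median log2 fold change −0.082). DESeq2 called 2 lower and 1 higher. Lhx2, a transcription factor gene of the forebrain and eye, was among those that fell. It went from 298 and 216 CPM to 157 and 125 CPM (log2 fold change −0.87, SE 0.15, edgeR adjusted p = 0.029). None of 15 Hox genes passed the filter; their summed counts were 0, 4, 4 and 2, with 10 of the 15 at 0 in every library.

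All 6 genes passed the filter on low counts. In the edgeR quasi-likelihood test with Benjamini-Hochberg adjustment over 14235 genes, Meis1 and Meis2 fell in the cKO forebrain and 0 of the 6 rose. At an unadjusted p under 0.05, 3 were lower and 0 higher, and DESeq2 and limma-voom also called 2 lower and 0 higher. Such p-values were common over the whole table: the unadjusted edgeR p of Gsx1, 0.043, ranked only 2285 of 14235 genes. Each unadjusted count given below is to be read against that. Of all genes tested, 2.13% were called lower and 1.57% higher. Meis2 dropped to 42.4% and Meis1 to 56.4% of the control level, Meis3 stood at 74.4%, and the 3 Pbx genes stood between 92.9% and 103%. In bulk tissue, fewer cells of a type and less RNA per cell cannot be told apart. In Meis1, Meis2, Meis3 and Pbx2 both cKO libraries lay below both controls, an ordering found for 24.0% of all genes tested. The reverse ordering was found for none of the 6 and for 24.3% of all genes tested, so that the groups did not overlap for 48.3% of all genes in either direction. The median log2 fold change was −0.27 over the 6 genes and −0.00028 over all genes tested.

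Meis2 (chromosome 2, 115861264 to 116067537, minus strand), a partner of PBX and DLX proteins in the ventral forebrain, had 1473 and 1140 counts in the control libraries and 594 and 508 in the cKO libraries. These counts corresponded to 88.4 and 67.1 CPM against 35.8 and 30.1 CPM. The higher cKO library stood below the lower control. The controls differed 1.32-fold between themselves and the cKO libraries 1.19-fold, while the groups differed 2.36-fold. The log2 fold change was −1.24 (SE 0.14, 95% interval −1.57 to −0.91, edgeR adjusted p = 0.0062). It ran from −1.42 to −1.03 with 1 library left out, and Meis2 was called in each of those 4 fits (adjusted p 0.00016 to 0.025).

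Meis1 (chromosome 11, 18880428 to 19019651, minus strand), a homeobox gene also known from leukaemia, had 465 and 524 counts in the control libraries and 231 and 324 in the cKO libraries. The levels were 27.9 and 30.8 CPM in the control and 13.9 and 19.2 CPM in the cKO. The groups did not overlap, but the cKO libraries differed 1.38-fold between themselves, more than those of any other of the 6 genes. The log2 fold change was −0.83 (SE 0.16, 95% interval −1.20 to −0.46, edgeR adjusted p = 0.037). The call ended without control replicate 1 (−0.90, adjusted p = 0.062), control replicate 2 (−0.75, adjusted p = 0.059) or cKO replicate 1 (−0.61, adjusted p = 0.084), and held without cKO replicate 2 (−1.08, adjusted p = 0.022). Exons of Meis1 share 896 bases (8.51% of its exon bases) with the opposite-strand gene Gm16140 and 1029 bases (9.77%) with Gm37818 on the same strand. The counting set no strand option, so that reads from the bases shared with Gm16140 cannot be told apart by strand.

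Meis3 (chromosome 7, 16174012 to 16186510, plus strand), a further member of the MEIS group, had 562 and 585 counts in the control libraries and 447 and 402 in the cKO libraries. The levels were 33.7 and 34.4 CPM against 26.9 and 23.8 CPM. The controls were nearly equal, and both cKO libraries stood below them. The log2 fold change of −0.43 (SE 0.10, 95% interval −0.66 to −0.19, not adjusted for the number of genes) did not pass the threshold after adjustment (edgeR adjusted p = 0.067). It ran from −0.52 to −0.34 with 1 library left out (adjusted p 0.090 to 0.30).

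The authors' deposited table, made with DESeq2, gave log2 fold changes of −1.24 for Meis2 (SE 0.15, adjusted p = 8.77e-14), −0.83 for Meis1 (SE 0.20, adjusted p = 0.00165) and −0.43 for Meis3 (SE 0.16, adjusted p = 0.130). Of 13964 genes with an adjusted p in the authors' deposited table, 2.49% were lower in the cKO and 4.48% differed in either direction at the same threshold. In both analyses the adjusted p of Meis1 and Meis2 was under 0.05 and that of Meis3 was not. Both rest on the same 4 libraries, and DESeq2 run here gave the same log2 fold changes and SE for these genes. The deposited values are therefore no independent check.

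**Figure D1:**
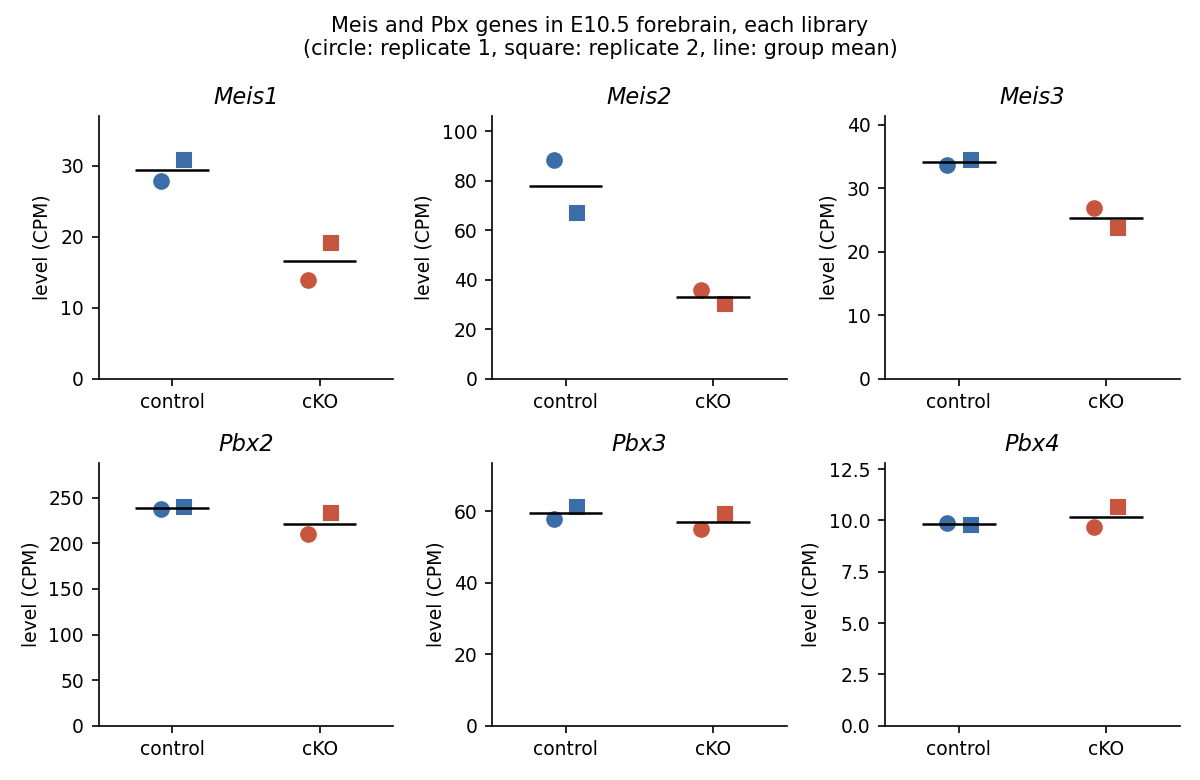
Levels of the 6 genes in CPM (y axis, linear and starting at 0) in each library by group; circles are replicate 1, squares replicate 2, and lines the group means. The cKO libraries of Meis1, Meis2 and Meis3 sit clear of the controls, with Meis2 at 35.8 and 30.1 CPM against 88.4 and 67.1 CPM, while those of Pbx3 and Pbx4 overlap them.

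Pbx2 (chromosome 17, 34592259 to 34597400, plus strand), a DNA-binding partner of the MEIS proteins, had 3962, 4075, 3489 and 3941 counts in control replicates 1 and 2 and cKO replicates 1 and 2. Its levels were 238 and 240 CPM in the control and 210 and 233 CPM in the cKO libraries. Both cKO libraries were lower, cKO replicate 2 only slightly so. The log2 fold change was −0.11 (SE 0.06, 95% interval −0.24 to 0.03, edgeR adjusted p = 0.40). Exons of Pbx2 share 227 bases (6.24% of its exon bases) with Gpsm3 on the same strand.

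Pbx3 (chromosome 2, 34171457 to 34372045, minus strand), a PBX protein known from the developing striatum and hindbrain, was at 57.8 and 61.1 CPM in the control and at 54.9 and 59.1 CPM in the cKO libraries. The groups overlapped, and the log2 fold change was −0.06 (SE 0.07, 95% interval −0.23 to 0.11, edgeR adjusted p = 0.73). Pbx4 (chromosome 8, 69832476 to 69872292, plus strand), a further PBX gene, had 165, 166, 161 and 180 counts in control replicates 1 and 2 and cKO replicates 1 and 2. It was at 9.90 and 9.77 CPM in the control and at 9.70 and 10.6 CPM in the cKO libraries. The log2 fold change was 0.05 (SE 0.15, 95% interval −0.31 to 0.41, edgeR adjusted p = 0.91), and its sign turned without cKO replicate 2 (−0.02). The interval of Pbx4 allows levels of 80.7% to 133% of the control, that of Pbx3 85.4% to 108% and that of Pbx2 84.5% to 102%. The Meis1 estimate of −0.83 lies outside all 3 intervals, but its own interval reaches −0.46. These intervals are not adjusted for the number of genes and rest on 2 libraries per group. As the genes were chosen with these values known, this is a description only.

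Levels were compared between genes only per kilobase of exon (RPKM), with lengths from GENCODE M21. By the union of exons, Pbx2 led in every library, at 65.6 ± 0.42 RPKM in the control and 60.9 ± 4.4 RPKM in the cKO (mean ± SD, n = 2). Meis3 (10.7 ± 0.16 RPKM), Pbx3 (9.73 ± 0.38 RPKM), Meis2 (6.45 ± 1.2 RPKM), Pbx4 (4.44 ± 0.041 RPKM) and Meis1 (2.79 ± 0.20 RPKM) followed in the control. Neighbours in this order did not overlap between the 2 control libraries, but Meis3 and Pbx3 changed places under the other length definition. In the cKO, Pbx3 (9.33 ± 0.49 RPKM) stood above Meis3 (7.99 ± 0.70 RPKM), and Pbx4 (4.59 ± 0.30 RPKM) above Meis2 (2.73 ± 0.34 RPKM), with Meis1 last at 1.57 ± 0.35 RPKM. Meis2 was thus above Pbx4 in both controls and below it in both cKO libraries.

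By the longest transcript in place of the union of exons, the control level of Meis2 was 14.1 ± 2.7 RPKM and that of Pbx3 20.8 ± 0.81 RPKM, since the union of exons counts 12043 bases for Meis2 and its longest transcript 5498. In the control order Pbx3 then stood above Meis3 (17.7 ± 0.26 RPKM), and 4 of the 6 genes kept their place. The place of Meis2, above Pbx4 in the control (6.30 ± 0.058 RPKM) and below it in the cKO (5.99 ± 0.74 against 6.52 ± 0.43 RPKM), held on the means but not in every library. In cKO replicate 1 Meis2 was at 6.51 and Pbx4 at 6.22 RPKM, and in cKO replicate 2 they were at 5.47 and 6.83 RPKM.

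The summed RPKM of the 3 Meis genes was 20.6 and 19.4 in the control and 12.8 and 11.8 in the cKO libraries, 61.5% of the control. That of Pbx2, Pbx3 and Pbx4, which covers these 3 genes only and is no total of the Pbx family, was 79.2 and 80.3 in the control and 71.1 and 78.5 in the cKO, 93.8% of the control. Within the Meis sum the share of Meis2 was 35.6% and 28.8% in the control and 23.3% and 21.1% in the cKO libraries. The share of Meis3 was 51.6% and 56.1% in the control and 66.4% and 63.5% in the cKO, so that Meis3 was the largest part of the Meis sum in each library by this measure. The share of Meis1 was 14.0 ± 1.6% and 12.9 ± 3.6% (SD, n = 2), a difference smaller than the spread. Within the sum of these 3 Pbx genes alone, Pbx2 held 82.2 ± 0.25% in the control and 81.4 ± 0.25% in the cKO. These shares show unequal change within a library and not which gene moved.

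**Figure D2:**
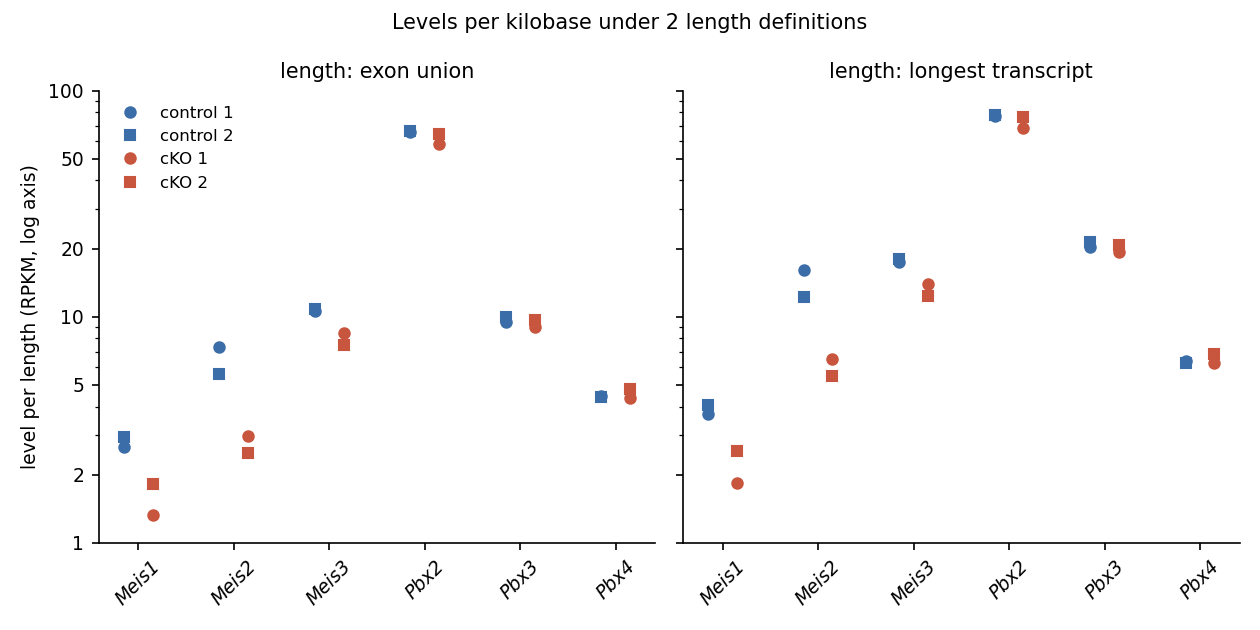
RPKM of the 6 genes (y axis, log scale) in each library, with the length taken as the union of exons (left) or the longest transcript (right); colours are groups and shapes replicates. Pbx2 is the highest under both definitions, and Meis2 passes from 6.45 RPKM in the control to 2.73 RPKM in the cKO on the left panel.

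The wider TALE class was described by 11 further genes, of which 10 passed the filter, 1 rose and 0 fell in edgeR. At an unadjusted p under 0.05, 4 were higher and 1 lower, and DESeq2 called 2 higher and 0 lower. Their median log2 fold change was 0.13. The gene that rose was Pknox2, which encodes a MEIS-related partner of PBX proteins. It was at 51.5 and 62.2 CPM in the control and at 83.5 and 84.3 CPM in the cKO libraries (log2 fold change 0.56, SE 0.09, edgeR adjusted p = 0.021). Both cKO libraries were above both controls, but the call ended without cKO replicate 1 (adjusted p = 0.057) or cKO replicate 2 (adjusted p = 0.090). Pknox1, its paralog, was at 30.9 and 28.8 CPM in the control and at 22.1 and 23.1 CPM in the cKO libraries (−0.40, SE 0.10, edgeR adjusted p = 0.077). Its values, and those of Irx1 and Irx2, are given after they were seen. Irx1 and Irx2, Iroquois genes of brain regionalisation that lie in 1 cluster, had log2 fold changes of 1.07 (SE 0.23, edgeR adjusted p = 0.054) and 1.15 (SE 0.25, edgeR adjusted p = 0.052). The number of TALE genes called higher was 4 without control replicate 2, 2 without cKO replicate 1 and 0 without cKO replicate 2. It was 2 with no count filter.

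**Figure D3:**
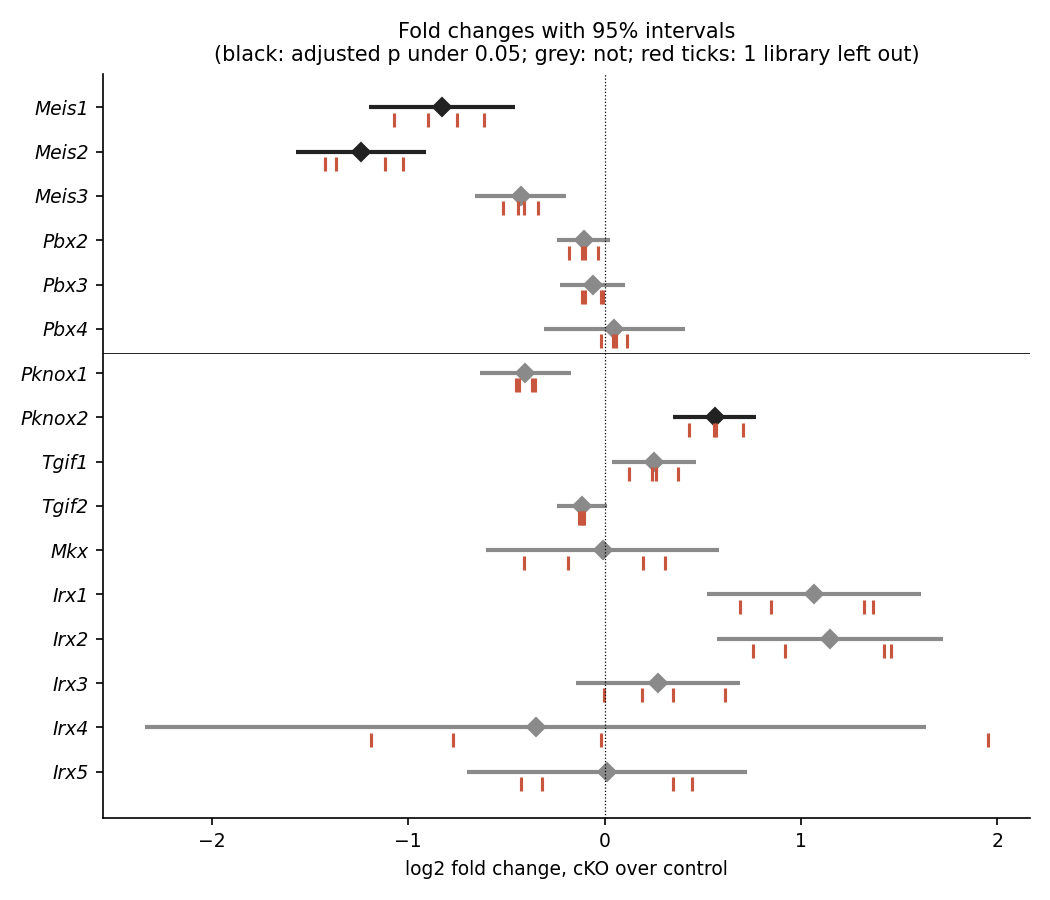
Log2 fold changes of cKO over control (x axis) for the 6 genes, above the line, and 10 further TALE genes; diamonds are estimates, bars 95% intervals, black marks an adjusted p under 0.05, and red ticks are fits with 1 library left out. Meis2 at −1.24 and Meis1 at −0.83 lie to the left of 0 with every tick, Pknox2 at 0.56 to the right, and the intervals of the 3 Pbx genes include 0.

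Among 11 homeodomain and Pax genes whose proteins bind with MEIS or PBX proteins in the brain, 9 passed the filter, 3 fell and 0 rose in edgeR (median log2 fold change −1.03). Unadjusted, 5 were lower and 2 higher at p under 0.05, and DESeq2 called 4 lower and 0 higher. Those that fell were Pax6, Dlx1 and Dlx2, whose proteins act with MEIS2. Pax6 went from 213 ± 7.2 to 105 ± 0.62 CPM (−1.03, SE 0.05, edgeR adjusted p = 0.00034), and Dlx1 (−3.56) and Dlx2 (−3.08) had edgeR adjusted p of 0.0031 and 0.0064. The log2 fold change of Meis2 lay between those of Pax6 and Dlx2. Without control replicate 2, 2 genes of this list were higher.

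Of 10 other partners and modifiers of MEIS and PBX proteins, 9 passed the filter and 0 were called by edgeR (median log2 fold change −0.034). At an unadjusted p under 0.05, 1 was higher and 1 lower, and DESeq2 and limma-voom called 0. The smallest p-values were those of Pbxip1, which encodes a PBX-interacting protein that keeps PBX from DNA (0.38, SE 0.09, edgeR adjusted p = 0.068), and Ep300, an acetyltransferase (−0.13, SE 0.05, edgeR adjusted p = 0.23). Pbxip1 was at 29.9 and 31.0 CPM in the control and at 41.5 and 37.7 CPM in the cKO libraries.

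All 15 genes listed as reported MEIS or PBX targets in brain and eye passed the filter, and 4 rose and 3 fell in edgeR (median log2 fold change −0.03). Unadjusted, 5 were higher and 6 lower at p under 0.05. DESeq2 called 5 higher and 4 lower, and limma-voom 3 higher and 2 lower. Pax6 and Gad2 (−4.26, edgeR adjusted p = 0.0031), an enzyme gene of GABA synthesis, fell, and the cyclin genes Ccnd2 (0.59, edgeR adjusted p = 0.032) and Ccnd1 (0.22, edgeR adjusted p = 0.041) rose. Between 0 (without control replicate 1) and 4 members (without control replicate 2) were called higher when 1 library was left out, with 2 without cKO replicate 1 and 1 without cKO replicate 2. Between 2 and 5 were called lower, the 5 without control replicate 2.

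Meis genes are classical genes induced by retinoic acid. Of 18 genes of the retinoic acid pathway, 14 passed the filter, 3 rose and 0 fell in edgeR (median log2 fold change 0.26). Unadjusted, 6 were higher and 1 lower at p under 0.05, and DESeq2 called 3 higher and 0 lower. The binding protein gene Crabp2 went from 278 ± 34 to 411 ± 3.8 CPM (0.56, SE 0.08, edgeR adjusted p = 0.011), the retinol dehydrogenase gene Rdh10 from 12.9 ± 0.13 to 20.9 ± 0.36 CPM (0.70, SE 0.12, edgeR adjusted p = 0.025) and the retinol uptake receptor gene Stra6 from 19.0 ± 4.7 to 37.3 ± 7.3 CPM (0.97, SE 0.19, edgeR adjusted p = 0.041). The number called higher was 1 without control replicate 1, 1 without cKO replicate 1, 2 without cKO replicate 2 and 5 without control replicate 2.

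Around the 6 genes, 38 genes within 200 kb passed the filter, and 0 of them were called higher or lower by edgeR, against 3.70% of all genes tested. At an unadjusted p under 0.05, 2 were higher and 5 lower, and DESeq2 and limma-voom called 0. The 3.70% is no background for these unadjusted counts. Over all 14235 genes an unadjusted edgeR p of 0.043 (Gsx1) ranked only 2285. The smallest p-value was at the Meis2 locus. The non-coding RNA gene 2810405F15Rik, 7011 bases from Meis2, had 31 and 11 counts in the control and 3 and 0 in the cKO libraries (edgeR adjusted p = 0.10). G630016G05Rik, which overlaps the span of Meis2, had 14 and 13 counts in the control and 3 and 5 in the cKO libraries. Its log2 fold change was −1.72 (SE 0.59, edgeR adjusted p = 0.19). The counting set no strand option, so the strand of its reads is not known. Both RNAs were lower in both cKO libraries, at 31 counts or fewer, and both were singled out after their values were seen. No gene near Meis1 passed the filter, and of 9 near Meis3 the log2 fold changes ran from −0.18 to 0.16.

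The genes most like Meis2 and Meis1 over the 4 libraries were sought by the distance between gene-centred log2 CPM values among 10817 other named genes whose mean level reached 5 CPM. Closest to Meis2 were Npas3, a bHLH-PAS transcription factor gene of the brain (distance 0.055), Add2, which encodes a membrane skeleton protein (0.081), and Atcay, a gene of neurons (0.13). Npas3 had 559 and 443 counts in the control and 221 and 198 in the cKO libraries, a log2 fold change of −1.25. Closest to Meis1 were the homeobox gene Prox1 (distance 0.15), Akap6, which encodes a kinase-anchoring protein (0.16), and Adgrl4, a receptor gene of endothelium (0.18). Prox1 had 273 and 307 counts in the control and 123 and 169 in the cKO libraries. The genes near Meis2 shared the higher value of control replicate 1, and those near Meis1 the lower value of cKO replicate 1. This follows from the choice by likeness over these same libraries. With 4 libraries this likeness is a description of these libraries only.

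Markers of cell types and regions moved in the same comparison, and their part in the lower Meis levels was not tested. Of 11 subpallium markers 8 fell and 0 rose in edgeR, and their summed level was 205 and 252 CPM in the control and 93.5 and 98.7 CPM in the cKO libraries. These cKO sums were 41.0% and 43.3% of the control mean, beside 46.1% and 38.7% for Meis2. The lists share genes: Dlx1, Dlx2 and Gad2, which fell in the lists above, are counted again among these 8. Without cKO replicate 2, 5 subpallium markers were called. Of 8 tested diencephalon and optic markers 3 fell and 0 rose, and the sum went from 388 and 352 to 248 and 262 CPM. Of 10 neuron markers 3 fell and 0 rose, with sums of 1051 and 876 CPM in the control and 613 and 633 CPM in the cKO libraries. Without control replicate 1 or control replicate 2, 5 neuron markers were called. At an unadjusted p under 0.05, 10 subpallium, 3 diencephalon and optic and 9 neuron markers were lower, and 0, 1 and 0 were higher. DESeq2 called 8, 3 and 4 lower and 0 higher.

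Meis1 is expressed in cells of the blood and vessel lineages as well. Of 9 tested erythroid markers 6 fell and 0 rose in edgeR and in DESeq2 (7 and 0 at an unadjusted p under 0.05). The sum went from 2852 and 3071 to 1895 and 1808 CPM. These cKO sums were 64.0% and 61.1% of the control mean, beside 47.4% and 65.3% for Meis1. The adult globin genes Hba-a1 and Hba-a2 had 0 counts in every library. Whether these globin genes were transcribed was not tested, and the counts alone do not show that they were silent. Of 12 endothelial markers 0 were called by edgeR or DESeq2, with 7 lower and 1 higher at an unadjusted p under 0.05, and the sum went from 344 and 335 to 288 CPM in both cKO libraries, 84.9% and 85.0% of the control mean, beside 47.4% and 65.3% for Meis1. Of 9 macrophage and microglia markers 0 were called by edgeR or DESeq2 and 0 had an unadjusted p under 0.05, with sums of 34.9 and 31.8 CPM in the control and 29.5 and 23.7 CPM in the cKO libraries.

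Head mesenchyme, which also expresses Meis genes, varied within groups. Of 17 tested mesenchyme and neural crest markers 0 were called by edgeR or DESeq2, with 3 lower at an unadjusted p under 0.05. Without cKO replicate 1, 4 were called lower. Without control replicate 1, 1 was called lower, and without control replicate 2, 1 was called higher. The sum was 1024 and 1249 CPM in the control and 1198 and 744 CPM in the cKO libraries. Its lowest value was in cKO replicate 2, where Meis2 and Meis3 were lowest, while Meis1 was lowest in cKO replicate 1. Of 7 tested surface ectoderm markers 0 were called by edgeR, 1 was higher in DESeq2 and at an unadjusted p under 0.05, and 6 were called higher without control replicate 2. Their sums were 14.5 and 55.2 CPM in the control and 66.4 and 51.1 CPM in the cKO libraries. The low sum was in control replicate 1, where Meis2 was highest.

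**Figure D4:**
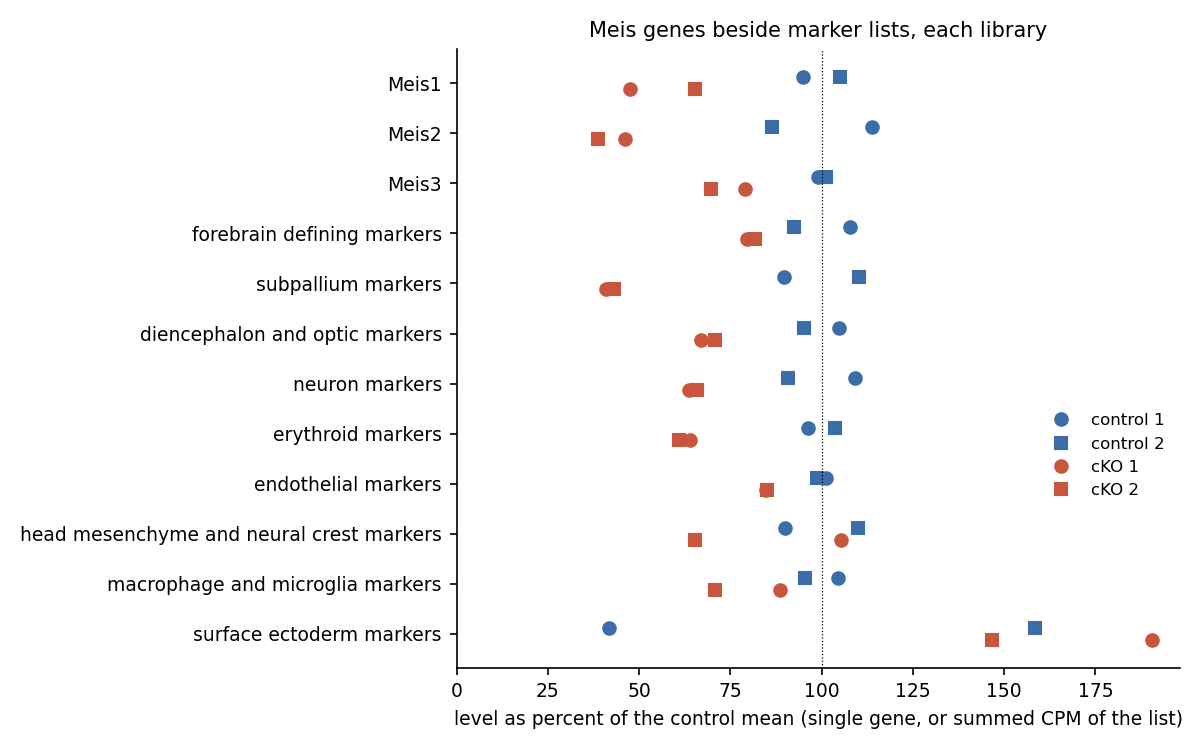
Level in each library as a percent of the control mean (x axis) for the 3 Meis genes and for the summed CPM of 9 marker lists; colours are groups and shapes replicates. The subpallium sums (41.0% and 43.3%) lie beside the Meis2 values (46.1% and 38.7%) in the cKO libraries. There the neuron sums are at 63.6% and 65.8%, the erythroid sums at 64.0% and 61.1% and the endothelial sums at 84.9% and 85.0%. Of the mesenchyme sums in the cKO libraries 1 lies between the controls (105%) and 1 below both (65.4%).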

How the data were processed

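RNA sequencing of 2 control and 2 cKO forebrain libraries was analysed. The submitters' processing notes name HISAT2, featureCounts, DESeq2 and mm10. The deposited raw counts of paired-end reads over RefSeq exons were made with featureCounts 2.0.1 without a strand option, per the file headers. The comparison table that the authors deposited, with log2 fold changes, p-values, a Wald score not used here and normalized counts (a signal), was used only where it is named.

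Genes were kept by filterByExpr (minimum count 10; 14235 genes) and scaled by TMM. The groups were compared in edgeR 4.0.16 (glmQLFit, glmQLFTest; R 4.3.3) without covariates, and a Benjamini-Hochberg adjusted p under 0.05 was called. The SE is the log2 fold change over the root of F, and 95% intervals use the fit's degrees of freedom. The common biological coefficient of variation was 0.0785. RPKM divides CPM by GENCODE M21 exon length. Likeness used log2 CPM with a prior count of 2 and left out genes with Gm or Rik names. In lists, up to 4 called genes were named, or the 2 with the smallest p. The members and lists were chosen with earlier results of these data known. Some values of listed genes are not reported here.

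On simulated counts for 14061 genes the test recovered 66.2% of genes changed 1.5-fold, 95.8% changed 2-fold and 100% changed 4-fold, with 3 false calls among 177. Replicates were distinct libraries (chi-square per degree of freedom 5.37 in the control, 4.52 in the cKO). The counts of calls and the fold changes of the 6 genes, the other TALE genes and Chd7 were recomputed with other scaling factors (DESeq2 size factors; upper quartile), other filters (none; 5 CPM on average), other tests (the Wald test of DESeq2 1.42.0; limma-voom, limma 3.58.1), the replicate number as a block and 1 library left out at a time. The order of levels and the shares were recomputed by transcript length only, the neighbouring genes by DESeq2 and limma-voom only, and likeness and summed levels were not recomputed. The values of a group are given as replicate 1, then replicate 2.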

Additional observations from a re-analysis of the deposited data

How the results depend on the processing

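Meis2 was called lower under all 11 alternatives to the test, and Meis1 under all but the 3 fits given above. Genes called over the whole table numbered 223 higher and 303 lower. With the replicate number as a block, 137 were higher, and 5 listed genes rose in place of 8 (3 further TALE genes in place of 1, 1 reported target in place of 4 and 1 retinoic acid gene in place of 3). Over all genes tested, the deviations of same-numbered libraries had a correlation of −0.053. With 2 libraries per group this cannot show whether the libraries were paired. The block changed no call among the 6 genes. With 1 library left out, calls ran from 80 to 351 higher and from 131 to 418 lower, members called lower from 1 to 2, and listed genes called higher from 2 to 22. Such a fit has fewer samples, and the group reduced to 1 library takes its spread from the remaining group. By the longest transcript, control shares within the Meis sum were 10.9% for Meis1, 39.4% for Meis2 and 49.7% for Meis3, against 14.0%, 32.2% and 53.8% by the union of exons. Within the sum of the 3 Pbx genes they were 74.2% for Pbx2, 19.8% for Pbx3 and 6.01% for Pbx4, against 82.2%, 12.2% and 5.56%. Values that turned sign were uncalled with all 4 libraries: Pbx4 (−0.018 to 0.12 with 1 library left out), Mkx (0.0045 with upper-quartile factors, −0.41 to 0.31 with 1 library left out), Irx4 (0.28 with limma-voom, −1.19 to 1.95 with 1 library left out), Irx3 (−0.0051 to 0.62) and Irx5 (−0.43 to 0.45). The cause was not tested. Counting error was 7.88% of the lowest count for Pbx4 and 6.58% for Meis1, the genes with the fewest counts of the 6.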
